A study of Homo sapiens with 9 samples.

Results

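The subject is a stretch of 1000 kb near the end of the long arm of chromosome 9 (hg19, 139000000 to 140000000), which holds the genes NOTCH1, EGFL7 and TRAF2. It was chosen by the number of ZEB1 peaks in RKO cells, so that number is a description and not a finding. All peaks of 5 deposited peak lists that lie in the stretch are described, 168 of the 47426 peaks in all. The peaks came from chromatin immunoprecipitation with sequencing (ChIP-seq), in which formaldehyde-fixed chromatin is precipitated with an antibody and the recovered DNA is sequenced. ZEB1 was profiled in unmodified RKO cells, a colon carcinoma line, and in unmodified MiaPaCa2 cells, a pancreatic ductal adenocarcinoma line. It was also profiled in 2 lines grown out of MiaPaCa2 by dilution after electroporation with plasmids that carry the Cas9 nickase. The WT clone received the nickase plasmids, and the delta-Repeat clone also received pairs of guide RNAs against the repeats upstream of MIR200A and MIR200B. CTCF was profiled in unmodified MiaPaCa2 cells. Each condition had 1 sample with a peak list and each clone is a single line, so no difference here can be set against a spread between cultures, and no test was run. The RKO cells, the unmodified MiaPaCa2 cells and the clones were each precipitated with a different lot of the ZEB1 antibody. Lot therefore cannot be told apart from cell line, or from the difference between clones and unmodified cells. RKO cells were grown in a MEM-based medium and MiaPaCa2 cells in DMEM, and all were fixed in formaldehyde. Peak lists carry no read depth, so a missing peak means only that none was called.

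ZEB1 is a zinc-finger repressor that binds E-box sequences and silences epithelial genes during the epithelial-to-mesenchymal transition. NOTCH1 is a cell-surface receptor whose intracellular part is cut off on ligand binding and enters the nucleus to activate target genes. EGFL7 encodes a secreted protein best known from blood vessel endothelium and hosts the microRNA gene MIR126 in an intron. TRAF2 encodes an adaptor that carries signals from tumour necrosis factor receptors. CTCF is a zinc-finger protein found at insulators and at the borders of chromatin loops. Gene bounds are rounded to 100 bp for NOTCH1 and EGFL7. Those of TRAF2 are approximate, and so are all distances from it. NOTCH1 spans 139388900 to 139440300 on the minus strand, EGFL7 139553300 to 139567200 on the plus strand, and TRAF2 139776000 to 139821000 on the plus strand. Other genes of the Notch pathway were not analysed here.

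None of the 5 lists had a peak over the first base of NOTCH1, EGFL7 or TRAF2 as these bounds give it. The sequences around the NOTCH1 and TRAF2 starts are shown because both genes held ZEB1 peaks of RKO cells inside the gene and none over its first base. They are RefSeq sequences of the assembly GRCh38.p14, from 250 bases before to 50 after a start, and their coordinates cannot be compared with the hg19 positions of the peaks. Capitals mark the letters CACCT on either strand, the core that ZEB proteins recognise. The NOTCH1 sequence lies at chr9:136545999-136546298 on the minus strand and the TRAF2 sequence at chr9:136886266-136886565 on the plus strand.
NOTCH1: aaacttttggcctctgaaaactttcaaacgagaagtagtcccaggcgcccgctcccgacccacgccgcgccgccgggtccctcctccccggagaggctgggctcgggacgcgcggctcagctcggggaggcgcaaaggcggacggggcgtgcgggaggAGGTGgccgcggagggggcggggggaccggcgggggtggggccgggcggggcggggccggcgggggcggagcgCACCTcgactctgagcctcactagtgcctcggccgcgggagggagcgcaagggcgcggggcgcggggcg
TRAF2: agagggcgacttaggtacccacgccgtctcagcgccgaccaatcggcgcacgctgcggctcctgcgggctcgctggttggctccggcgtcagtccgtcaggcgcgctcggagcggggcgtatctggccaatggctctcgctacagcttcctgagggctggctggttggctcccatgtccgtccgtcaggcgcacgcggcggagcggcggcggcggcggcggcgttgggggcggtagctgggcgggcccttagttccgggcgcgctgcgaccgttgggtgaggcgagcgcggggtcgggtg
The NOTCH1 sequence held the core 2 times, once on each strand, beginning 92 and 19 bases before the start. The TRAF2 sequence and both EGFL7 sequences of the table held none. The longer E-box CACCTG, which contains the core, was in none of these 4 sequences on either strand. Of all 35116 sequences of the table, 51.6% held the core and 20.6% held CACCTG. The TRAF2 start of this table lies 4.56 kb into the gene as RefSeq bounds it, and the nearest ZEB1 summit of RKO cells (fold 3.61) lay 4.48 kb into TRAF2 as hg19 bounds it. These distances come from different builds, and the peak was not placed against that start.

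RKO cells had 70 ZEB1 peaks in the region, more than in any other of 1630 windows of 1 Mb that held an RKO peak. The window next in order had 61, and the median window had 3. The lists that did not choose the region were also dense here. Unmodified MiaPaCa2 cells had 23 ZEB1 peaks, the highest number of any window in that list, shared by 4 windows. The delta-Repeat clone had 10, also the highest of its list and shared by 3 windows, while the WT clone had 8 and ranked sixth, level with 5 other windows. CTCF had 57 peaks, where the densest window of that list had 61. The number of RKO peaks per MiaPaCa2 peak was 3.04 in the region, 2.19 over the rest of chromosome 9 and 1.497 over the whole lists. The choice of the region by its RKO count makes this ratio high by construction. The number of CTCF peaks per ZEB1 peak of MiaPaCa2 was 2.48 in the region, 6.63 over the rest of the chromosome and 6.61 over the lists. The 6 other windows with at least 50 CTCF peaks held between 13 and 52 RKO peaks, with a median of 20. Over 2695 windows, RKO and MiaPaCa2 counts correlated with a Pearson r of 0.76 and a Spearman rho of 0.75, and RKO and CTCF counts with 0.65 and 0.69. All lists were counted over the same windows, whose gene content was not measured, so these correlations are descriptions.

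**Figure D1:**
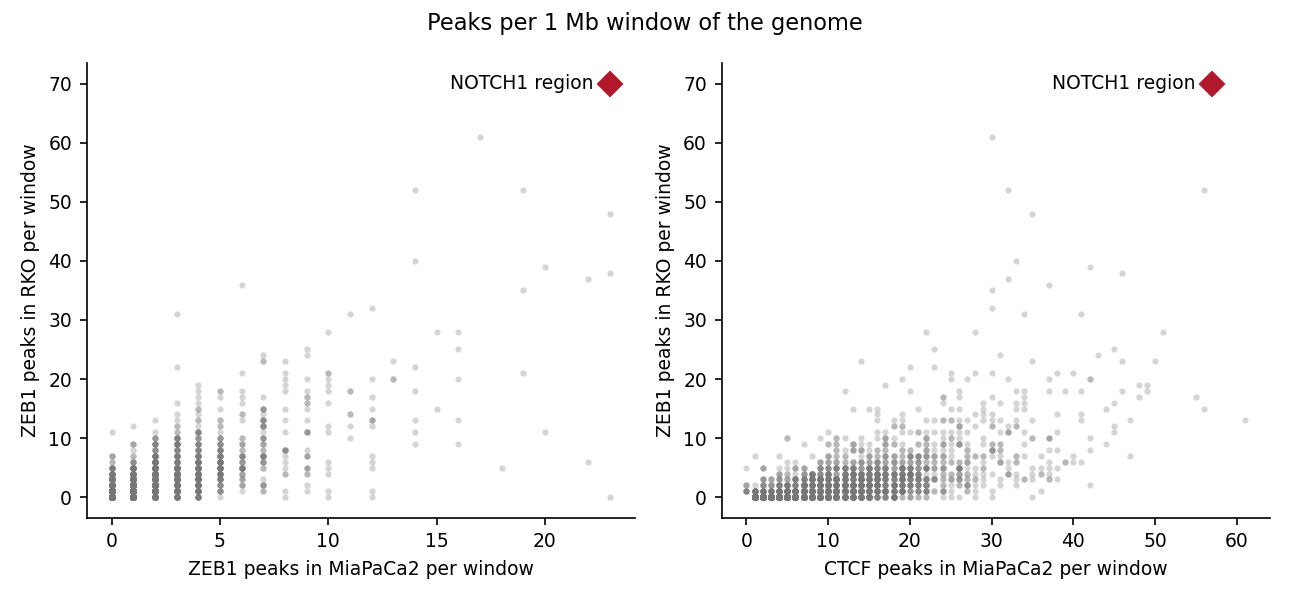
Each point is a window of 1 Mb, with its number of ZEB1 peaks in RKO cells against that in MiaPaCa2 cells (left) and against its number of CTCF peaks (right). The NOTCH1 region (diamond) has 70 RKO, 23 MiaPaCa2 and 57 CTCF peaks and lies at the top of both plots.

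The bounds of the region cut through the dense stretch. When windows of 1 Mb could begin at any summit, each of the 4 ZEB1 lists had its densest window begin inside the region and run past its end. For RKO it held 98 peaks, from a summit at 139378923, just beyond the 3′ end of NOTCH1, to 140352944, and the densest window that did not touch the region held 66. For MiaPaCa2 it held 35 peaks over nearly the same stretch, against 30 elsewhere. For the WT clone it held 16 against 15, and for the delta-Repeat clone 13 against 12. The densest such CTCF window was on chromosome 1 with 64 peaks, and the densest that touched the region had 63. The first RKO summit past the upper bound lay 7.999 kb beyond it, and the last one inside lay 18.9 kb before it. At the lower bound the first RKO summit inside lay 128 kb away and the last one outside 25.7 kb away.

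Within the region ZEB1 peaks gathered toward the chromosome end. The first 100 kb held no ZEB1 peak of any list and 5 CTCF peaks. The last 100 kb held 19 of the 70 RKO peaks, 6 of the 23 MiaPaCa2 peaks, 3 of the 8 WT clone peaks and 5 of the 10 delta-Repeat clone peaks, but 7 of the 57 CTCF peaks. Neighbouring RKO summits lay a median of 5.41 kb apart, against 67.04 kb over the whole list, which restates the RKO count that chose the region. The median spacing was 27.2 kb in MiaPaCa2 (list 145.9 kb) and 12.4 kb for CTCF (list 35.9 kb). WT clone summits had a median spacing of 68.2 kb (list 521.7 kb), and delta-Repeat clone summits of 56.5 kb (list 433.3 kb). Of the 69 gaps between RKO summits 12 were under 1 kb (17.4%), against 11.5% over the whole list. The closest pair of RKO summits, at 139887452 and 139887608, lay 156 bp apart, and both peaks were among the weakest of the list, with folds of 2.82 and 3.77. The closest MiaPaCa2 pair lay 361 bp apart, at 139844304 and 139844665, and RKO had 1 peak of 1404 bp over both. The widest gap between RKO summits was 93.04 kb, from 139129655 to 139222697, past the 3′ end of NOTCH1 toward the chromosome centre. In the delta-Repeat clone the widest gap was 307 kb, from 139378889 to 139686296, which takes in all of NOTCH1 and EGFL7. In the WT clone it was 235 kb, from 139383313 to 139618025, and took in the same genes.

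**Figure D2:**
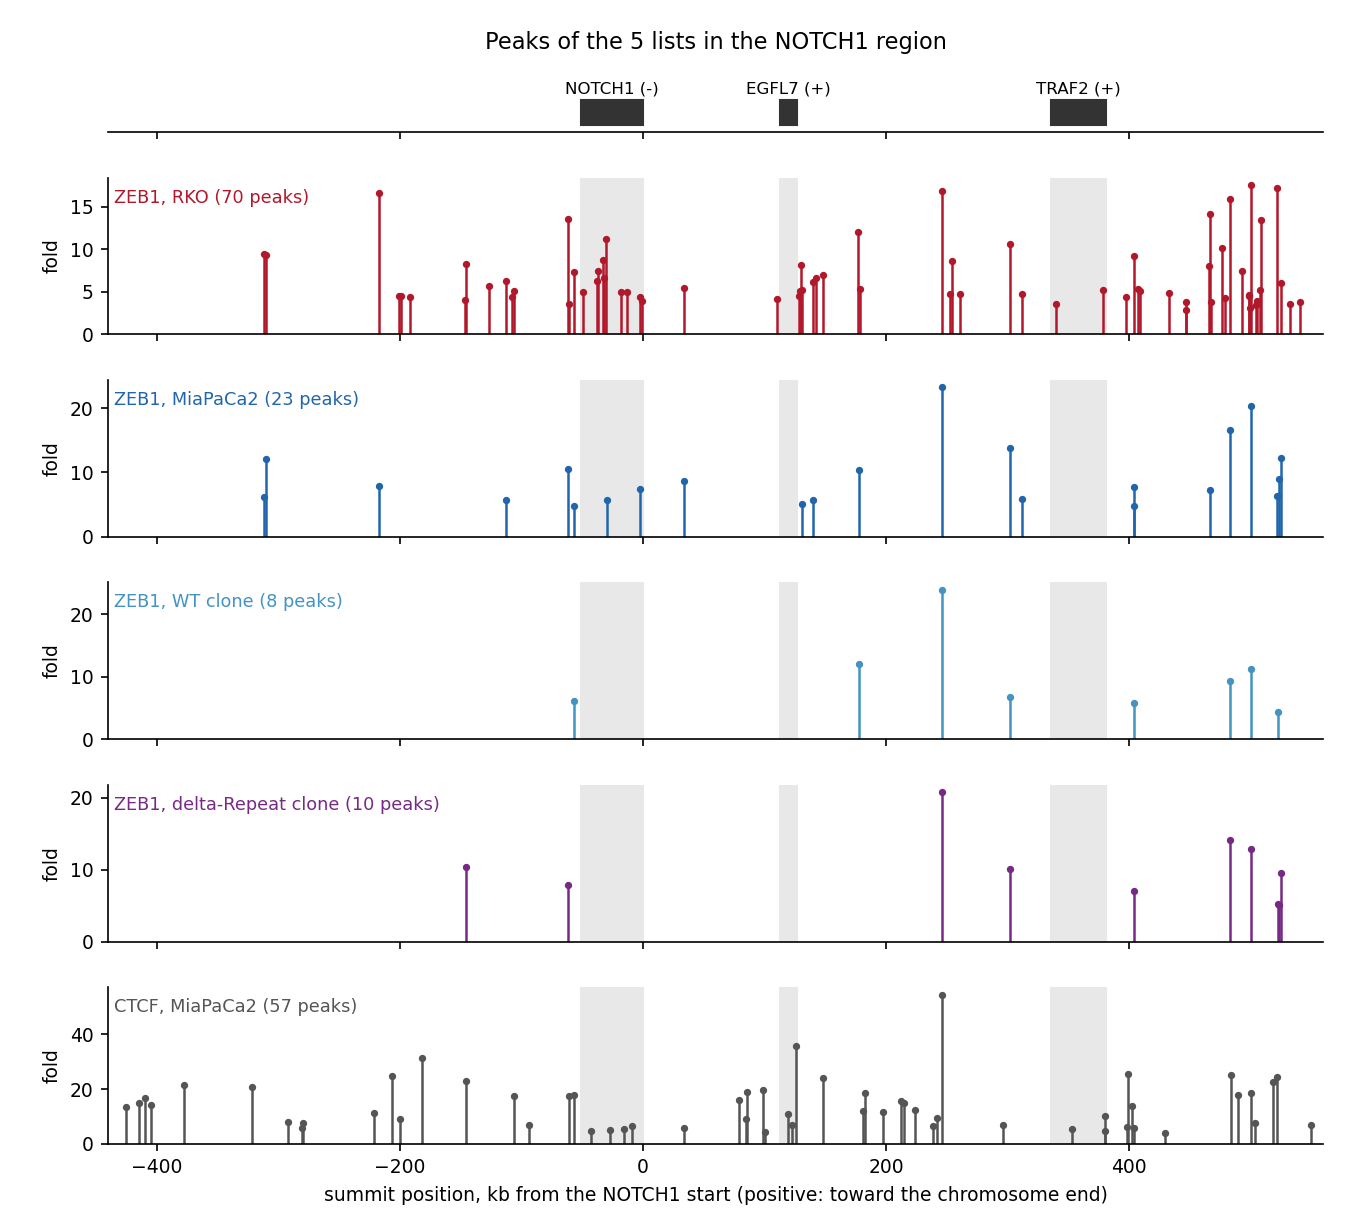
The fold enrichment of every peak of the 5 lists (vertical axes, each with its own scale) against the distance of its summit from the NOTCH1 start in kb, with the 3 genes as boxes and grey bands. RKO peaks run through NOTCH1 and crowd toward the right end, while the clones have none inside any of the 3 genes.

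The receptor gene NOTCH1 held 10 of the 70 RKO peaks, that is 1.95 per 10 kb of gene against 0.70 per 10 kb over the region. The last 100 kb of the region, past all 3 genes, was similarly dense with 19 RKO peaks. The fold enrichment is the authors' value at the summit over the caller's background, and it is ranked here only within its own list. Inside NOTCH1 the RKO folds ran from 3.98 to 11.2 with a median of 5.64, and the ranks from 766 to 6819 of 7193. Counted from the NOTCH1 start, 5 of the 10 lay between 30.1 and 37.9 kb into the gene. They include the strongest of the gene, from 139409572 to 139410597, which was 1026 bp wide with a fold of 11.2, and the next strongest, from 139406962 to 139407276, with a fold of 8.74. The peaks from 139403149 to 139403533 (fold 7.46), 139407855 to 139408146 (6.61) and 139402246 to 139402761 (6.32) make up the rest of this run. Outside it the folds lay between 3.98 and 4.96. The RKO peak nearest to the start, from 139439105 to 139439379, had its summit 1.07 kb into the gene, a fold of 3.98 and rank 6819.

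MiaPaCa2 had 2 peaks in NOTCH1 and the clones had none. The MiaPaCa2 peak from 139410167 to 139410469 (fold 5.66, rank 3296 of 4804) lay within the strongest RKO peak of the gene. The other, from 139437454 to 139437753 (fold 7.45, rank 1819), had its summit 2.64 kb into the gene and was the only MiaPaCa2 peak of the region with no RKO overlap. It ended 65 bp before the RKO peak from 139437819 to 139438083 (fold 4.38). Of the 10 RKO peaks in NOTCH1, 1 overlapped a MiaPaCa2 peak (10%, 95% interval 0.253 to 44.5), against 28.6% of the region's RKO peaks and 39.1% of the RKO list, which both lie within that interval. Both of these shares include the 10 peaks themselves. Intervals are exact Clopper-Pearson intervals and cover counting error only. They treat peaks as independent, while 5 of these 10 lay in 1 run, so this comparison is no test. CTCF had 4 weak peaks in the gene, with folds from 4.88 to 6.64 and ranks from 25582 to 30413 of 31754. None of them overlapped an RKO peak of the gene.

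A pair of places shared by RKO, MiaPaCa2 and 1 clone lay just past the 3′ end of NOTCH1. A place with its RKO summit 9.98 kb past the end (139378455 to 139379204) had a fold of 13.5 in RKO and 10.6 in MiaPaCa2. The delta-Repeat clone had a peak there with a fold of 7.79, and the WT clone had none. A second place, with its RKO summit 5.55 kb past the end (139382890 to 139383497), had a fold of 7.37 in RKO, 4.73 in MiaPaCa2 and 6.06 in the WT clone, and no delta-Repeat clone peak. It coincided with a CTCF peak of fold 17.9. So each clone had a peak at 1 of these places and not at the other. Between them RKO had a weak peak of its own, 139379266 to 139379489, with a fold of 3.61, which overlapped a CTCF peak of fold 17.4.

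**Figure D3:**
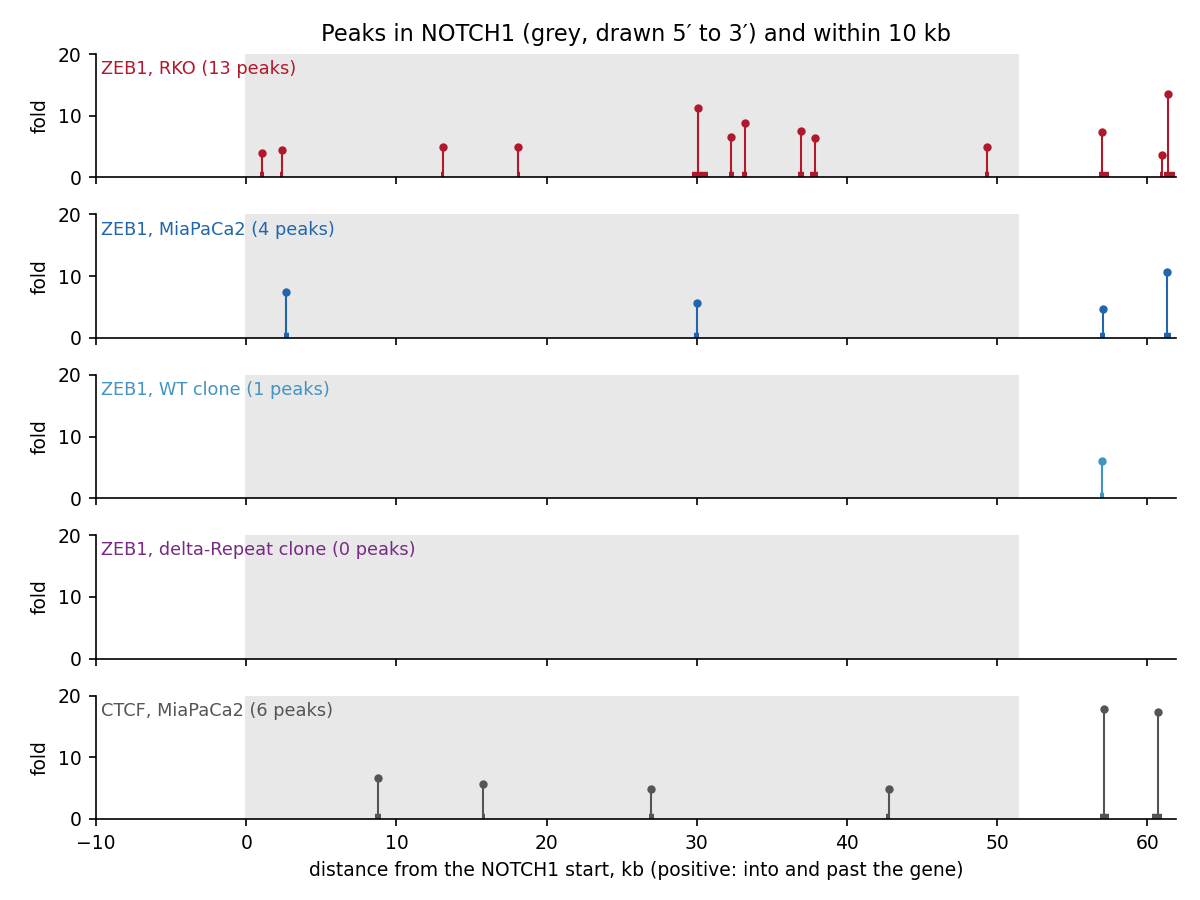
Fold enrichment of each peak against the distance of its summit from the NOTCH1 start in kb, drawn in the direction of transcription, with the gene in grey, peak widths as thick bars on the axis and 1 panel per list. RKO has 10 peaks inside the gene, MiaPaCa2 2 and the clones 0; the delta-Repeat clone peak just over 10 kb past the end is outside the counted range.

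EGFL7, the host of MIR126, held no ZEB1 peak in any of the 4 lists. In RKO 5 peaks lay within 10 kb, 1 before the gene and 4 past it. The one before it, from 139549949 to 139550331, had its summit 3.01 kb ahead of the start and a fold of 4.17. Those past it had summits 1.29, 2.43, 2.98 and 3.85 kb beyond the end, and the third of them, from 139570020 to 139570673, was the strongest with a fold of 8.15. MiaPaCa2 had 1 weak peak there, from 139570800 to 139571044 (fold 5.08), which overlapped the last of the 4 RKO peaks. CTCF had 3 peaks in EGFL7. The strongest, from 139565991 to 139566986, had its summit 0.931 kb before the end of the gene, a fold of 35.7 and rank 260 of 31754. It overlapped no ZEB1 peak.

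TRAF2, the adaptor gene, held 2 weak RKO peaks and no other ZEB1 peak. They lay from 139780441 to 139780640 (fold 3.61, rank 7048 of 7193) and from 139818261 to 139818665 (fold 5.19, rank 5169). In the other lists the ZEB1 summits nearest to its first base lay 23.4 kb before it in MiaPaCa2, 33.4 kb in the WT clone and 33.2 kb for delta-Repeat. CTCF had 3 peaks in TRAF2, with folds of 5.53, 4.59 and 10.1. The 3 genes together made up 11.03% of the region and held 12 of 70 RKO peaks (17.1%), 2 of 23 MiaPaCa2 peaks (8.70%) and 10 of 57 CTCF peaks (17.5%). The other 58 RKO and 21 MiaPaCa2 peaks lay outside these genes. That most did so follows from the small part of the region that the genes cover.

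The RKO peaks that were weakest by fold made up the biggest class. With the RKO list divided into 4 classes of equal size by fold, 30 of the 70 peaks fell in the weakest class, which holds 25.0% of the list. The next classes held 10 and 10, and the strongest held 20. The median fold was 5.23, against 6.04 over the list, and the range was 2.82 to 17.5. The median width was 384 bp against 333 bp over the list, and the median −log10 q was 9.04 against 8.65. When a fold of 5 or more and a −log10 q of 10 or more were both required, 32 of the 70 remained, or 45.7%, against 41.0% of the list. In MiaPaCa2 the region's peaks had a median fold of 7.78 against 6.53 over the list. For the WT clone the medians were 8.05 and 7.46, for the delta-Repeat clone 9.79 and 7.06, and for CTCF 12.3 and 10.8. The best rank of a region peak was 250 of 7193 in RKO, 150 of 4804 in MiaPaCa2, 50 of 1515 in the WT clone, 90 of 2160 for delta-Repeat and 46 of 31754 for CTCF.

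Nearly all MiaPaCa2 peaks had an RKO counterpart, while most RKO peaks had none in MiaPaCa2. Of the 23 MiaPaCa2 peaks, 22 overlapped an RKO peak by at least 1 bp (95.7%, 78.1 to 99.9), against 57.4% of the whole MiaPaCa2 list and 68.1% over the rest of chromosome 9. RKO peaks covered 3.52% of the region, and the choice of the region for its RKO peaks bears on this share. Of the 70 RKO peaks, 20 overlapped a MiaPaCa2 peak (28.6%, 18.4 to 40.6), against 39.1% of the whole RKO list and 30.9% over the rest of the chromosome. The 20 shared RKO peaks had a median fold of 10.01 and a median width of 794.5 bp, and the 50 others 4.82 and 303 bp. Over the whole list the medians were 7.56 and 437 bp for shared peaks and 5.55 and 285 bp for the others. Class by class, 1 of 30 was shared in the weakest (3.33%, 0.0844 to 17.2), 2 of 10 and 4 of 10 in the middle ones, and 13 of 20 in the strongest (65%, 40.8 to 84.6). The list gave 20.9%, 24.4%, 38.9% and 72.1%. Choosing the region for its RKO peaks bears on these shares of RKO peaks too, in total and by class. For the 22 overlapping pairs the median distance between the MiaPaCa2 and RKO summits was 88.5 bp, and 14 were within 100 bp.

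**Figure D4:**
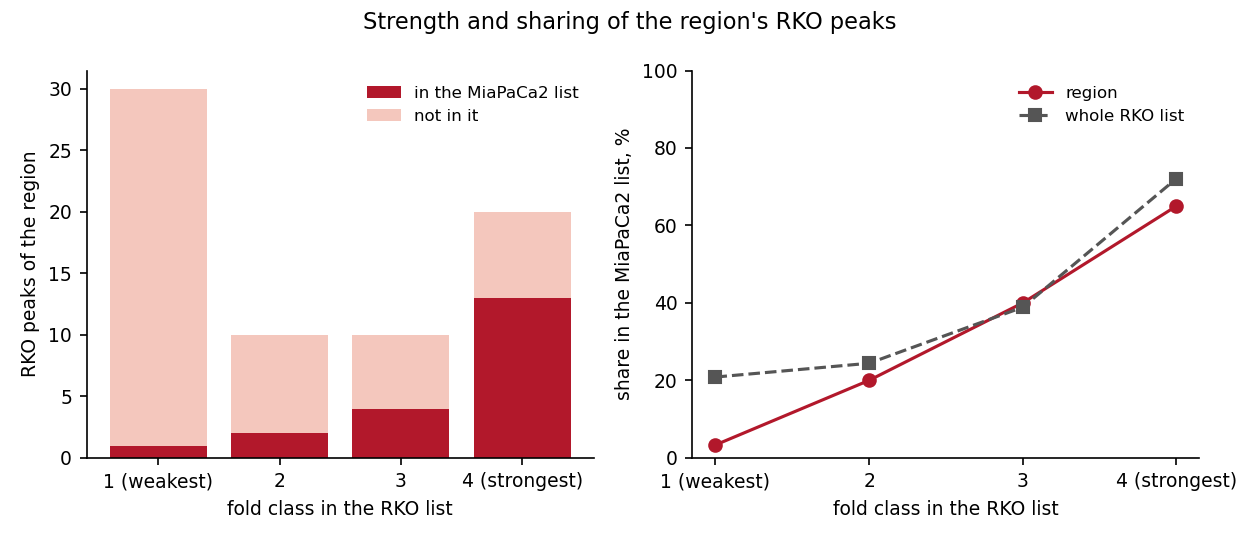
Left, the region's 70 RKO peaks by fold class of the RKO list, split by whether they overlap a MiaPaCa2 peak; right, the percentage that does in each class, for the region and for the whole list. The weakest class holds 30 peaks of which 1 is shared, and the strongest 20 of which 13 are.

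Strong RKO peaks were also found on the other side of NOTCH1, where the peak from 139222502 to 139223375 (fold 16.6, rank 288) overlapped a MiaPaCa2 peak of fold 7.94 and no clone peak. The 5 strongest RKO peaks with no MiaPaCa2 overlap had ranks from 483 to 1639. The strongest, 139948597 to 139949543, had a fold of 13.4. The next, 139916776 to 139917327, had a fold of 10.1. The third was the NOTCH1 peak of fold 8.74 described above. The fourth lay from 139694392 to 139694650 (fold 8.66). The last, from 139294439 to 139294676 (fold 8.24), had a counterpart in the delta-Repeat clone from 139294420 to 139294678 with a fold of 10.4, and overlapped a CTCF peak. This was the only clone peak of the region with no overlapping peak called in unmodified MiaPaCa2 cells.

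Joined across the 4 ZEB1 lists, the peaks made 71 places. Of these, 49 were in RKO alone (69.01%) and 1 in MiaPaCa2 alone (1.41%), against 45.6% and 15.8% of all joined ZEB1 places. The choice of the region for RKO peaks bears on both shares. A further 10 were in both unmodified lines and neither clone (14.1%, all places 11.96%), and 6 were in all 4 lists (8.45%, 3.16 to 17.5), against 9.84% of all joined ZEB1 places. All 6 lay beyond EGFL7, toward the chromosome end.

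The place with the highest fold of the region in MiaPaCa2 and in both clones, and the third highest in RKO, lay between EGFL7 and TRAF2, from 139685818 to 139686660. Its fold was 16.8 in RKO, 23.2 in MiaPaCa2, 23.9 in the WT clone and 20.8 for delta-Repeat. Its rank was 3.93% of the way down the RKO list, 3.12% in MiaPaCa2, 3.30% in the WT clone and 4.17% for delta-Repeat. The summits of the 4 lists fell within 95 bp of each other, about 119 kb past the end of EGFL7 and 89.7 kb before TRAF2. The strongest CTCF peak of the region (139685762 to 139686872, fold 54.5, rank 46) covered this place. In the gene order of GRCh38.p14, 13 named protein-coding genes lie between EGFL7 and TRAF2, from AGPAT2 beside EGFL7 to EDF1 beside TRAF2. Which of them is nearest to the place was not measured here. A second place in this interval, from 139742315 to 139743231, had a fold of 10.6 in RKO, 13.9 in MiaPaCa2, 6.75 in the WT clone and 10.1 for delta-Repeat. It was the only one of the 6 places without a CTCF peak.

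The other 4 places lay past TRAF2. The place from 139843748 to 139845151 was the weakest by rank in RKO, with folds of 9.26 in RKO, 7.78 in MiaPaCa2, 5.74 in the WT clone and 7.02 for delta-Repeat. The place from 139922939 to 139923944 had folds of 15.9, 16.7, 9.35 and 14.1 in the same order. The place from 139940515 to 139941426 had 17.5, the highest RKO fold of the region, and 20.3, 11.2 and 12.8 in the others. Its 4 summits lay within 21 bp, and the CTCF summit lay between 62 and 83 bp from each of them.

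The last of the places was the widest. From 139962309 to 139964387 RKO had 1 peak of 2079 bp (fold 17.2), which ranked 17th by width among the 7193 RKO peaks. MiaPaCa2 had 2 peaks under it, from 139962310 to 139962853 (fold 6.31) and from 139963748 to 139964369 (fold 8.94). The delta-Repeat clone also had 2, with folds of 5.25 and 5.07, and the WT clone had 1 of fold 4.42, at the first of these positions. The RKO summit lay near the first position, 87 bp from the summit of a CTCF peak of fold 24.4. A further place that was wide in both unmodified lines lay from 139616790 to 139618362. There the RKO peak was 1356 bp wide and the MiaPaCa2 peak 1573 bp, their summits lay 851 bp apart, and the WT clone peak of 497 bp (fold 12.02) sat under the MiaPaCa2 summit. The delta-Repeat clone had no peak there.

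**Figure D5:**
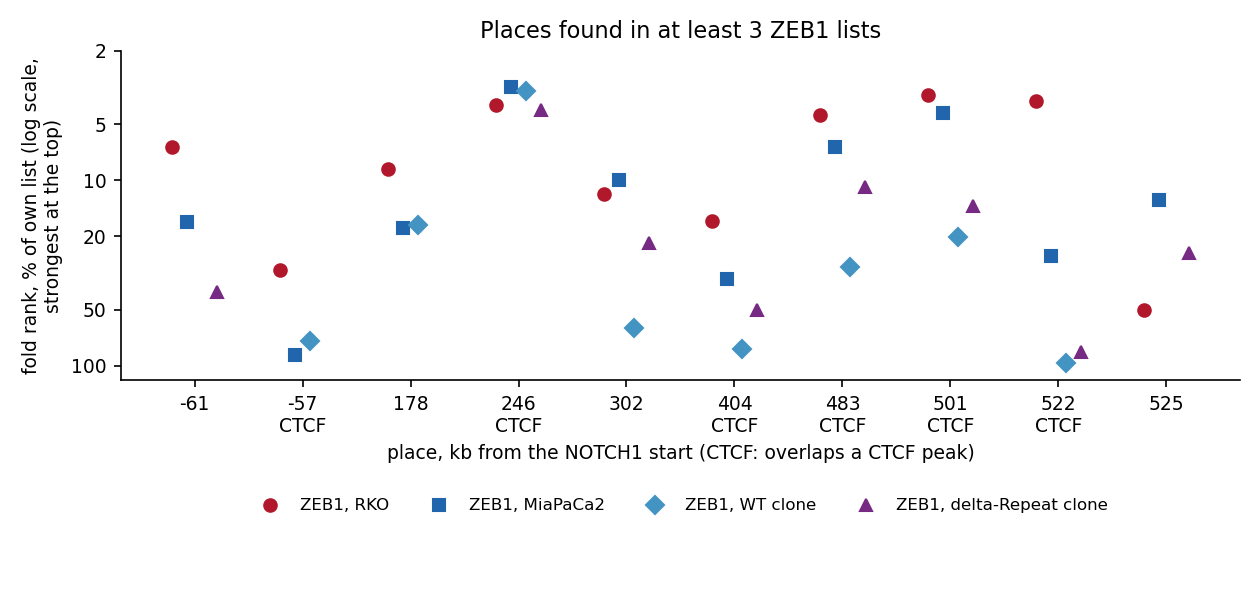
For each place found in at least 3 ZEB1 lists, the fold rank of its strongest peak as a percentage of its own list (log axis, strongest at the top), by distance from the NOTCH1 start in kb; CTCF marks places that overlap a CTCF peak. The place at 246 kb ranks between 3.12% and 4.17% in the 4 lists, and the place at 522 kb at 3.71% in RKO.

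Clone peaks of the region fell on places of the unmodified lines. All 8 WT clone peaks overlapped a MiaPaCa2 peak (63.1% to 100% as the 95% interval), against 95.2% of the WT clone list, and 9 of 10 delta-Repeat clone peaks did (90%, 55.5 to 99.7), against 86.6%. All 8 and all 10 also overlapped an RKO peak, against 76.8% and 71.1% of the lists, but the choice of the region for its RKO peaks raises these shares by construction. Between the clones, 6 of 8 WT clone peaks had a delta-Repeat counterpart (75%, 34.9 to 96.8, list 73.4%) and 6 of 10 the other way (60%, 26.2 to 87.8, list 51.3%). The WT clone peaks without a counterpart were those past the 3′ end of NOTCH1 and at 139617737 to 139618233. The WT clone had a peak at 8 of the 23 MiaPaCa2 peaks (34.8%, list 29.3%), and the delta-Repeat clone at 10 (43.5%, list 38.0%). Those in the WT clone had a median fold of 12.1 and those missing from it 7.20, and for the delta-Repeat clone the medians were 11.4 and 6.17. Over the whole MiaPaCa2 list the corresponding medians were 10.7 and 5.93, and 9.47 and 5.84.

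Some ZEB1 peaks of the region coincided with the insulator protein CTCF. Of the MiaPaCa2 ZEB1 peaks, 7 of 23 overlapped a CTCF peak (30.4%, 13.2 to 52.9), against 20.2% of the list. Of the RKO peaks, 11 of 70 did (15.7%, 8.11 to 26.4), against 14.8%. Of the WT clone peaks 6 of 8 did (75%, 34.9 to 96.8), against 20.4% of that list, and of the delta-Repeat clone peaks 6 of 10 (60%, 26.2 to 87.8), against 22.7%. In each clone 5 of these 6 peaks were at the places found in all 4 ZEB1 lists, so the shares are not separate observations. The RKO peaks shared with MiaPaCa2 overlapped CTCF in 7 of 20 cases (35%, 15.4 to 59.2) and the others in 4 of 50 (8%, 2.22 to 19.2), where the whole list gave 20.5% and 11.1%. CTCF was profiled in MiaPaCa2 alone. Its peaks were dense here, 57 where the median window of that list had 10, and covered 2.66% of the region. This density bears on all shares with CTCF in the region, and they were not adjusted for it. Of the 6 places in all 4 ZEB1 lists 5 overlapped a CTCF peak, against 24.5% of all such places. Of the 50 places in a single list 3 did (6%), against 13.2%. These shares are of unlike sets. In the region 49 of the 50 were in RKO alone, while the 13.2% also takes in places of the other lists. Coincident summits were close in some cases only. Among 7 MiaPaCa2 overlaps the summits lay 62 to 655 bp apart, with 4 within 100 bp, and among 11 RKO overlaps 18 to 793 bp, with 5 within 100 bp. Of the 57 CTCF peaks of the region 11 overlapped an RKO peak (19.3%), against 3.36% of the CTCF list and 4.56% over the rest of chromosome 9. The choice of the region bears on this share as well.

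The 4 windows next in RKO density were set beside the NOTCH1 region. They lay on chromosome 8 (145000001 to 146000000, 61 RKO peaks), chromosomes 11 and 19 (52 each, from 1 to 1000000 and from 1000001 to 2000000) and chromosome 9 (140000001 to 141000000, 48). They had 2.09 to 3.71 RKO peaks per MiaPaCa2 peak, where the NOTCH1 region had 3.04. Between 21.2% and 39.6% of their RKO peaks were in MiaPaCa2, against 28.6% here. In the other direction, 76.5% to 94.7% of their MiaPaCa2 peaks were in RKO, against 95.7% here and 57.4% of the MiaPaCa2 list. Their median RKO folds lay between 5.31 and 6.43, and the median here was 5.23. CTCF peaks numbered 30, 32, 56 and 35 in that order, against 57. The other windows with 23 MiaPaCa2 peaks, like the NOTCH1 region, differed among themselves. The one on chromosome 3 (189000001 to 190000000) held 0 RKO and 13 CTCF peaks. The one on chromosome 14 (105000001 to 106000000) held 38 RKO and 46 CTCF peaks. The window on chromosome 9 named above, with 48 RKO and 35 CTCF peaks, also had 23. These differences were not tested.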

How the data were processed

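Peak lists of 5 samples were used. Per the submitters' processing notes, Bowtie2 2.2.6, SAMtools and MACS2 2.1.0.20150731 were used with the builds hg19 and GRCh37. The input used as control, and whether libraries were pooled, are not given in the sources used here, and the input samples were not analysed. The deposited fold enrichment is a linear ratio at the summit, and the authors' caller gave p-values and q-values as −log10 in the files deposited. A score column, deposited too and a rounded multiple of the q-value, was not used. Read depth is unknown, and folds were ranked only within a list.

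Peaks were read with Python 3.11.15, numpy 2.4.6, pandas 2.3.3 and scipy 1.17.1 and drawn with matplotlib 3.10.9. Positions are hg19, counted from 1, and a peak belonged to a gene when its summit did. Overlap meant at least 1 bp, and the code was tested on simulated lists beside bedtools 2.31.1. Windows of 1 Mb counted summits.

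The region, the genes and the lists were chosen with earlier results of these data known. The rule for named peaks took those in or within 10 kb of the 3 genes, the 5 strongest of each list, those in all 4 ZEB1 lists, the 5 strongest unshared ones and the closest summits. Windows starting at any summit, divisions of 100 kb, fold classes, the comparison with other dense windows and the core CACCT were chosen after seeing the data. Alternatives were a stricter threshold, other overlap rules, lists of equal length, joined peaks, moved windows and gene flanks. The planned count of Notch pathway genes with a peak was not run, as it needs gene positions on hg19.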

Additional observations from a re-analysis of the deposited data

How the results depend on the processing

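No paired analysis was possible because every condition has a single peak list, and no sample could be left out for the same reason. Of 113 planned values 84 stayed within 1.5 times the reported one or, for shares, within their 95% interval, and 29 did not. The 84 are no measure of stability. A count of 0 could not change under the stricter threshold, and intervals from few peaks are wide. With summits within 100 bp, the share of MiaPaCa2 peaks that met CTCF went from 30.4% to 17.4% and stayed within its interval. With the stricter threshold the region held 32 RKO, 13 MiaPaCa2 and 4 WT clone peaks. The RKO medians became a fold of 8.70, a width of 631.5 bp and a spacing of 8.16 kb, and the MiaPaCa2 spacing 73.4 kb. NOTCH1 then held 5 RKO, 0 MiaPaCa2 and 0 CTCF peaks, TRAF2 0 RKO peaks and 1 CTCF peak, and 3 places were in all 4 ZEB1 lists. The region's rank became 14 in the WT clone and 11 for CTCF. A stricter threshold removes weak peaks by construction. Moving the grid of windows split the region. The denser of the windows that held part of it ranked 1 in the WT clone and 1 for CTCF. These windows also reach outside the region, so this is not its own rank. Windows starting at any summit were added after seeing the data. The densest of them in each ZEB1 list began inside the region and ran past its end, which gives no rank for the region itself. Moving the region by 250 kb toward the chromosome start left 4 peaks of the WT clone and 5 of the delta-Repeat clone. With peaks under 1 kb apart joined, the RKO spacing was 10.2 kb. With an overlap of 50% of both peaks, 69.6% of MiaPaCa2 peaks were in RKO and 50% of WT clone peaks in MiaPaCa2. With summits within 100 bp, 60.9% of MiaPaCa2 peaks were in RKO and 7.14% of RKO peaks met CTCF, and with lists of equal length 62.5% of WT clone peaks were in MiaPaCa2. With 10 kb added on either side, NOTCH1 had 4 MiaPaCa2 and 1 WT clone peak, and EGFL7 5 RKO and 1 MiaPaCa2 peak. Unknown depth limits every statement on an absent peak.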
